A study of Mus musculus with 4 samples.

Results

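The genes described here are 9 members of the mouse T cell receptor system: the alpha constant gene Trac, the beta constant genes Trbc1 and Trbc2, the delta constant gene Trdc, the delta variable segment Trdv4, the gamma constant genes Tcrg-C1, Tcrg-C2 and Tcrg-C4, and Cd163l1, a scavenger receptor gene known as a marker of interleukin-17-producing gamma-delta T cells. They were taken by name, and all 9 were found among the 32285 genes of the deposited matrices. The data were 4 single-cell RNA libraries of CD45+ cells, that is leukocytes, from healthy livers of PA-GFP C57BL/6 mice. PA-GFP is a green fluorescent protein that light switches on, and every library carries the label photoactivation. The labels place 2 libraries in the portal vein zone (PV) and 2 in the central vein zone (CV). They give no age and are silent on whether each library is a separate mouse, so p-values here measure the spread between libraries, which may be technical.

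Unique molecular identifiers (UMIs), each counting 1 captured transcript, were read near the 3′ end of transcripts. The PV libraries held 3063778 and 4373488 UMIs and the CV libraries 2741760 and 2916638 UMIs. After removal of shallow and damaged cells and of barcodes shared between libraries, 333 and 512 PV cells and 372 and 376 CV cells remained, 1593 in all. Among 1939 barcodes, 282 occurred in several libraries, and each of these was kept only where at least 70% of its UMIs lay. A cell was called CD3-positive with at least 1 UMI of Cd3d, Cd3e or Cd3g, which encode the signalling chains of the receptor complex. It was called Ncr1-positive with at least 1 UMI of Ncr1, which encodes the natural killer receptor NKp46. This gave 807 CD3-positive cells, of which 67 were also Ncr1-positive, and 42 cells that were CD3-negative and Ncr1-positive. A further 55 cells with CD3 transcripts also carried at least 10 UMIs from at least 3 markers of another lineage and were set apart as mixed.

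An alpha-beta T cell pairs a rearranged alpha chain with a beta chain, and a gamma-delta T cell pairs a gamma with a delta chain. Each chain joins a variable domain to a constant region, which anchors the receptor in the membrane beside CD3. The delta genes lie inside the alpha locus, so joining of an alpha variable segment to an alpha joining segment removes the delta genes from that chromosome. The liver is known for natural killer T cells, whose alpha chain uses the segment Trav11 with a joining segment of the alpha locus, and for gamma-delta T cells. Natural killer cells and type 1 innate lymphoid cells carry no rearranged receptor, yet transcripts of unrearranged receptor genes are known in them.

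On GRCm38, with GENCODE annotation, Trac spans chr14:54220521-54224206 and Trdc chr14:54142851-54148868, with Trdv4 upstream of both at chr14:54074905-54075515, all on the plus strand. Trbc1 lies at chr6:41538218-41539881 and Trbc2 at chr6:41546730-41548352, both on the plus strand. Tcrg-C1 lies at chr13:19214103-19217024 and Tcrg-C4 at chr13:19344558-19352756 on the plus strand, and Tcrg-C2 at chr13:19304649-19307551 on the minus strand. Cd163l1 spans chr7:140218267-140231145 on the plus strand. The beta genes are near copies, and their sequences show where a read can tell them apart. Their coding bases were identical at 495 of 518 positions (95.6%). The first coding exon held 1 of the differences over 375 bases, and the other 22 fell in the last 143 coding bases, spliced from the later exons. These are shown with the bases that differ between the genes in capitals, Trbc1 from chr6:41539114-41539662 and Trbc2 from chr6:41547610-41548178.
Trbc1: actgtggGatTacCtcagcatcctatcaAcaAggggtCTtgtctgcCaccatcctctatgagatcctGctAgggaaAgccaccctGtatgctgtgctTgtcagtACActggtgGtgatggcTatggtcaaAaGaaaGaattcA
Trbc2: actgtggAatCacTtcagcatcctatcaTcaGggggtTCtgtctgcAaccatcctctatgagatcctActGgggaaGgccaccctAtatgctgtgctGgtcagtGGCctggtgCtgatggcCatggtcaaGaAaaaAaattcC
Beyond the stop, where 3′ reads fall, the beta genes shared 92 of 173 aligned bases (53.2%), and the longest shared run was 8 bases.

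The gamma genes differ most visibly in the exons that encode the connecting stretch between the constant domain and the membrane. That stretch holds 45 bases in Tcrg-C1 (chr13:19215864-19215908, plus strand), 30 in Tcrg-C2 (chr13:19305769-19305798, minus strand) and 99 in Tcrg-C4 (chr13:19349536-19350374, plus strand, spliced). Capitals mark the 15 bases of Tcrg-C1 that Tcrg-C2 lacks.
Tcrg-C1: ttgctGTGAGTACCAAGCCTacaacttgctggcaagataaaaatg
Tcrg-C2: ttgctacaacttgctggcaagataaaaatg
Tcrg-C4: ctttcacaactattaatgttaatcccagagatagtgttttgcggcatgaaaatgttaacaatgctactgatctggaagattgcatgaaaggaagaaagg
Beyond the stop, Tcrg-C1 and Tcrg-C2 shared 386 of 409 aligned bases (94.4%), with identical runs of up to 104 bases. Reads inside such runs cannot be given to 1 of the genes, so the split between Tcrg-C1 and Tcrg-C2 is uncertain. Tcrg-C4 shared no run longer than 9 bases there with either gene.

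Trac marked nearly all CD3-positive cells that lacked Ncr1 and few of the cells with it. In the CD3-negative Ncr1-positive cells, 5 of 42 (11.9%) had a Trac UMI, with 5 UMIs in all and 19.4 ± 14.1 CPM (counts-per-million of the class's UMIs; SD, n = 4 libraries). In the CD3-positive Ncr1-positive cells, 10 of 67 (14.9%) had it, at 79.4 ± 51.5 CPM. Among the 740 CD3-positive Ncr1-negative cells, 683 (92.3%) held Trac, at 802 and 783 CPM in the PV libraries, against 883 and 725 CPM in the CV libraries. These cells held 97.1% of all Trac UMIs. Because each transcript gives 1 UMI whatever its length, CPM was not divided by gene length. Macrophages, which should lack the gene, showed a Trac UMI in 2 of 245 cells (0.816%) at a median of 6687 UMIs per cell. The median was 4974 UMIs in CD3-negative Ncr1-positive cells, 5033 in CD3-positive Ncr1-positive cells and 6132.5 in CD3-positive Ncr1-negative cells. With each cell thinned to 4775 UMIs, which left 23, 38 and 576 cells of these classes, Trac was seen in 17.4, 18.4 and 90.8% of them.

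The beta constant genes reached well beyond the cells with Trac. At least 1 of Trbc1 and Trbc2 was detected in 38 of 42 CD3-negative Ncr1-positive cells (90.5%, Wilson 95% interval 77.9 to 96.2%), in 67 of 67 CD3-positive Ncr1-positive cells and in 725 of 740 CD3-positive Ncr1-negative cells (98.0%). In macrophages the count was 15 of 245 (6.12%). Thinned to the same depth, the shares were 95.7, 97.4, 99.3 and 2.61% in that order. In CD3-negative Ncr1-positive cells Trbc1 reached 186 and 301 CPM in the PV libraries, against 493 and 533 CPM in the CV libraries. Trbc2 in the same cells reached 139 and 493 CPM in the PV libraries, against 785 and 640 CPM in the CV libraries. Both genes were thus lowest in PV replicate 1, where the class held 6 cells. The PV libraries held 6 and 7 such cells and the CV libraries 11 and 18, fewer in PV than the 10 per library set for a test between zones. In CD3-positive Ncr1-negative cells Trbc1 was at 909 ± 10.2 CPM and Trbc2 at 1590 ± 102 CPM (SD, n = 4 libraries each).

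**Figure D1:**
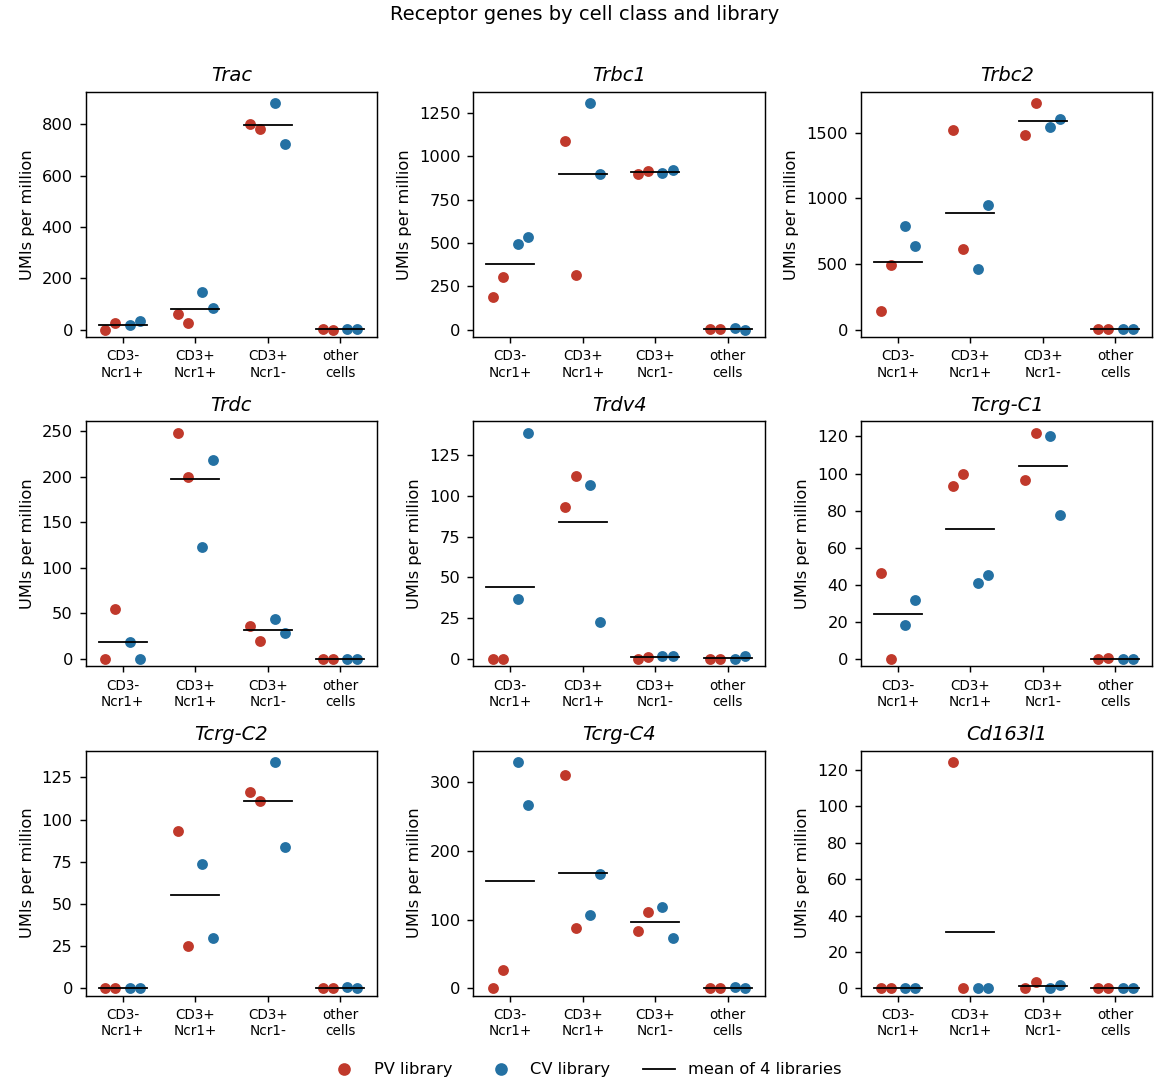
Level of each of the 9 genes in CPM (vertical axes, linear) by cell class, with 1 point per library (PV red, CV blue) and a line at the mean of 4 libraries. Trac sits at 19.4 CPM in CD3-negative Ncr1-positive cells and at 798 CPM in CD3-positive Ncr1-negative cells, whereas Trbc1 and Trbc2 are at 378 and 514 CPM in the CD3-negative Ncr1-positive cells and at 900 and 886 CPM in the CD3-positive Ncr1-positive cells.

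Single cells drew on the beta genes in different proportions. Of the 58 Ncr1-positive cells without Trac that had at least 5 Trbc UMIs, Trbc1 made up under 20% of the Trbc UMIs in 17.2%, over 80% in 19.0% and a share in between in 63.8%. Over all their Trbc UMIs, Trbc1 held 52.9%. Among the 633 cells with Trac, without Trdc and with as many Trbc UMIs, 47.7% lay under 20%, 8.85% over 80% and 43.4% in between. No Trbc1 was seen in 198 of them and no Trbc2 in 5, and Trbc1 held 36.7% of their Trbc UMIs. The median share per cell was 58.6% in the Ncr1-positive cells without Trac, against 24.3% in the cells with Trac only. Cells are not replicates, so this contrast was not tested.

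**Figure D2:**
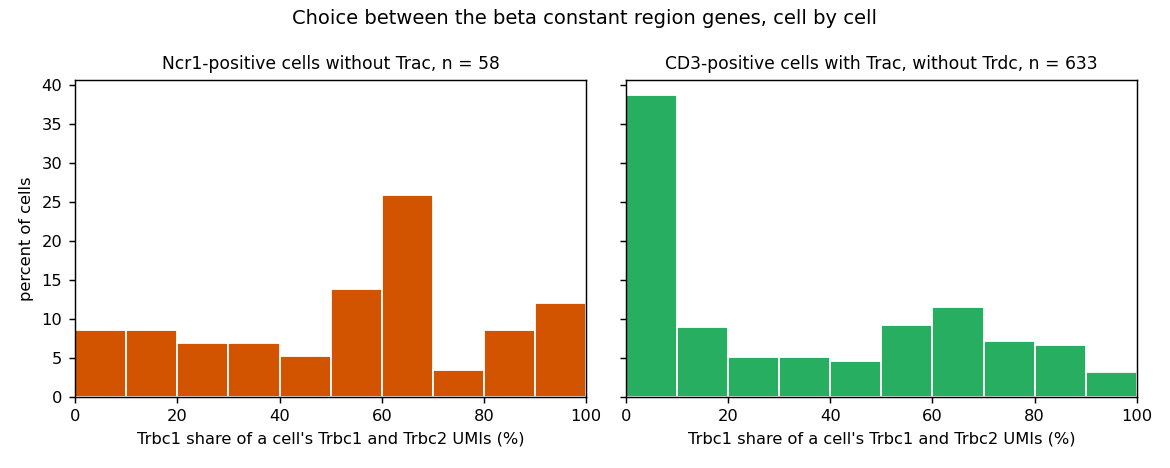
Histogram of the Trbc1 share of Trbc UMIs per cell (horizontal axis, percent), with the percent of each group's cells on the vertical axis. The groups are 58 Ncr1-positive cells without Trac (left) and 633 CD3-positive cells with Trac and without Trdc (right). The Ncr1-positive cells lie mostly in the middle (63.8%), and the cells with Trac pile up at the low end, where 198 of them have no Trbc1 UMI.

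Trdc was rare: 229 UMIs in all, in 35 of 807 CD3-positive cells (4.34%). Of the CD3-positive cells, 23 held Trdc without Trac (2.85%, Wilson 95% interval 1.91 to 4.24%), 12 held both (1.49%), 91 held neither (11.3%) and 681 held Trac without Trdc (84.4%). Intervals cover counting error only. By library, cells with Trdc only made up 2.82 and 1.87% of CD3-positive cells in PV and 3.11 and 3.74% in CV, on 6, 4, 6 and 7 cells. Cells with Trac only made up 86.9 and 87.4% in the PV libraries, against 81.3 and 81.3% in the CV libraries. In both measures the zones did not overlap. The share with Trdc only averaged 2.34 ± 0.670% over the PV libraries and 3.43 ± 0.449% over the CV libraries (SD, n = 2 each). The difference of -1.08 percentage points had p = 0.333 in a two-sided exact permutation test, the smallest value that 2 against 2 libraries allow. With every cell thinned to 4775 UMIs, and shallower cells left out, the difference turned to 0.799 points.

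Ncr1-positive cells were concentrated in the states without Trac. Of the 23 cells with Trdc only, 10 were Ncr1-positive, as were 47 of the 91 with neither gene and 7 of the 681 with Trac only. Without the Ncr1-positive cells, 13 of 740 held Trdc only (1.76%, interval 1.03 to 2.98%), 9 held both (1.22%) and 674 held Trac only (91.1%). Among all CD3-positive cells the share with Trac only averaged 87.1 ± 0.374% over the PV libraries and 81.3 ± 0.0451% over the CV libraries (SD, n = 2 each), a difference of 5.80 points (p = 0.333, two-sided exact permutation test). Without Ncr1-positive cells it was 88.5 and 92.5% in the PV libraries, against 92.3 and 91.4% in the CV libraries. The zones then overlapped, with PV replicate 2 the highest and PV replicate 1 the lowest, and the means differed by -1.34 points. The zones also overlapped with Ncr1-positive cells kept and every cell thinned as above, shallower cells left out. The share with Trac only was then 88.1 and 84.2% in the PV libraries, against 82.5 and 84.7% in the CV libraries. The means of these thinned shares differed by 2.57 points (p = 0.667, two-sided exact permutation test). CD3-positive Ncr1-positive cells numbered 5 and 13 in the PV libraries, against 25 and 24 in the CV libraries. Cells with neither gene were also shallower, with a median of 4711 UMIs, against 6229 in cells with Trac only. The part of depth in that state was not tested.

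**Figure D3:**
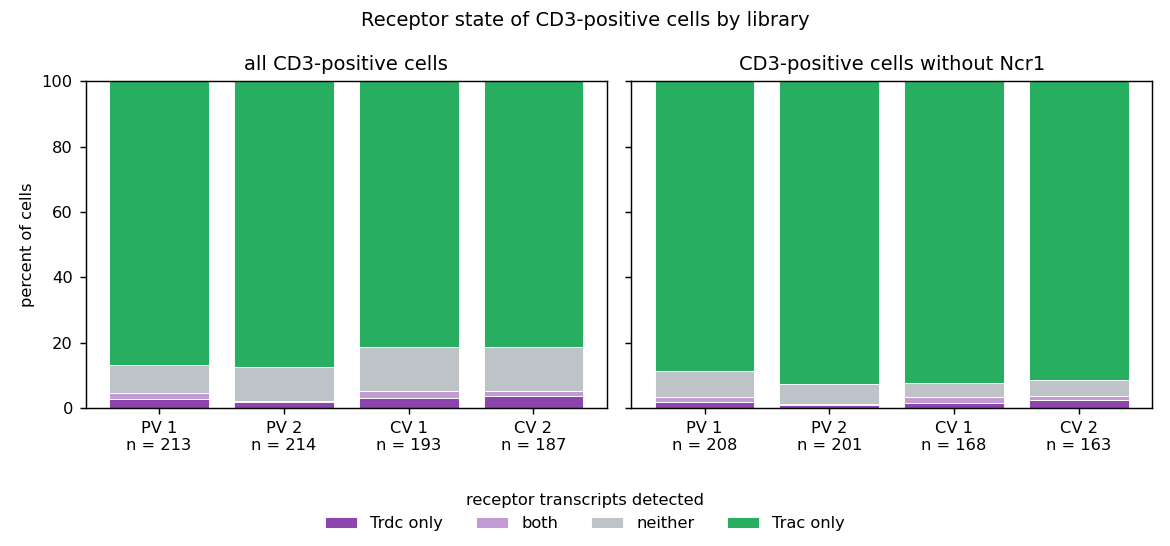
Stacked bars of the percent of CD3-positive cells (vertical axis, from 0) with Trdc only, both genes, neither gene or Trac only, for each PV and CV library, over all CD3-positive cells and without Ncr1-positive cells. The Trdc-only segment stays between 1.87 and 3.74% in the full set, and the zones do not overlap in the Trac-only segment of the full set but overlap once Ncr1-positive cells are left out.

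The CD3 gate rested on different genes in the Ncr1-positive cells without Trac and the Ncr1-negative cells with it. Among the 57 CD3-positive Ncr1-positive cells without Trac, Cd3g was seen in 56, Cd3d in 16 and Cd3e in 7 (12.3%), and 40 (70.2%) had Cd3g as their only CD3 gene. Among the 683 CD3-positive Ncr1-negative cells with Trac, Cd3g was seen in 674, Cd3d in 677 and Cd3e in 659 (96.5%), and 0 had Cd3g alone. Among all 740 CD3-positive Ncr1-negative cells, 11 (1.49%) had Cd3g alone, all of them without Trac. The groups differ in both Ncr1 and Trac, and which of these goes with Cd3g alone was not tested. The CD3-positive class thus held cells whose only CD3 transcripts were from Cd3g and in which no Trac was detected.

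Trdv4, a delta variable segment, was found mostly in Ncr1-positive cells. Of its 51 UMIs, 15 lay in CD3-negative Ncr1-positive cells, 28 in CD3-positive Ncr1-positive cells and 6 in CD3-positive Ncr1-negative cells. It was detected in 11 of 42 (26.2%), 17 of 67 (25.4%) and 5 of 740 (0.676%) of those cells. In CD3-negative Ncr1-positive cells it was at 0 and 0 CPM in the PV libraries, against 36.5 and 139 CPM in the CV libraries. In CD3-positive Ncr1-positive cells it was at 93.1 and 112 CPM in the PV libraries, against 107 and 22.6 CPM in the CV libraries. Another delta segment, Trdv2-2, was likewise seen in 9 of 42, 12 of 67 and 7 of 740 cells of these classes. Trdv1 had 0 UMIs in the kept cells.

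The gamma constant genes were not confined to cells with Trdc. In the 13 Ncr1-negative cells with Trdc only, Tcrg-C1 was seen in 11, Tcrg-C2 in 12 and Tcrg-C4 in 12, with 7.69 gamma UMIs per cell. In the 674 Ncr1-negative cells with Trac only, Tcrg-C1 was seen in 217 (32.2%), Tcrg-C2 in 193 (28.6%) and Tcrg-C4 in 203 (30.1%), with 2.01 gamma UMIs per cell. At least 1 gamma gene was seen in 50.9% of those cells, in 53.3 and 48.4% by PV library and 57.4 and 44.3% by CV library. Macrophages showed a gamma UMI in 3 of 245 cells (1.22%), far below either state. Over all 681 cells with Trac only, 48.8% had no gamma gene, 22.8% had 1, 16.9% had 2 and 11.6% had all 3. Median depth was 6132.5, 6172, 5964 and 6844 UMIs per cell in that order.

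Of the gamma genes, Tcrg-C4 was seen in the most cells of the Ncr1-positive classes. Among CD3-negative Ncr1-positive cells, Tcrg-C4 was seen in 19 of 42 (45.2%), Tcrg-C1 in 3 (7.14%) and Tcrg-C2 in 0 of 42, which allows a share of cells with a UMI of up to 7.14%. The Tcrg-C4 cells were 0 of 6 and 1 of 7 in the PV libraries, against 8 of 11 and 10 of 18 in the CV libraries. At the thinned depth, Tcrg-C4 was seen in 13 of 23 of these cells (56.5%), against 27.4% of CD3-positive Ncr1-negative cells. Among the 47 CD3-positive Ncr1-positive cells with neither Trac nor Trdc, 11 had Tcrg-C4, 3 Tcrg-C1 and 1 Tcrg-C2. The 10 Ncr1-positive cells with Trdc only had these genes in 7, 4 and 3 cells in the same order.

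**Figure D4:**
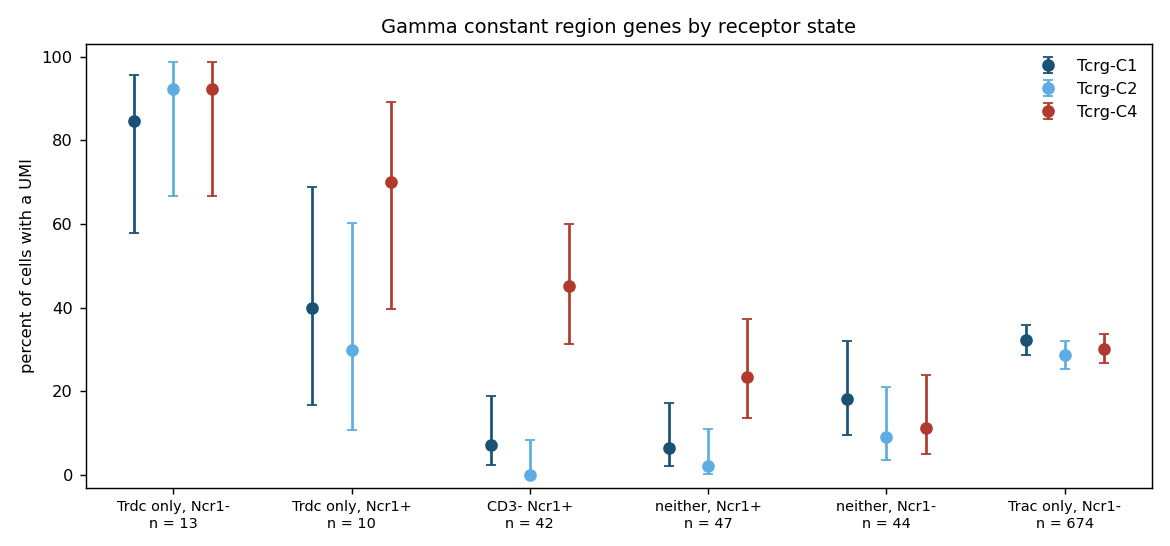
Percent of cells with a UMI of Tcrg-C1, Tcrg-C2 or Tcrg-C4 (vertical axis, from 0) by receptor state and Ncr1, with Wilson 95% intervals that cover counting error only. Ncr1-negative cells with Trdc only stand at 84.6 to 92.3% for each gene, Ncr1-negative cells with Trac only near 30%, and CD3-negative Ncr1-positive cells at 45.2% for Tcrg-C4, with 18 of these 19 cells in the CV libraries, and 0 for Tcrg-C2.

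Variable segments of the gamma locus were detected beside the constant genes. Trgv2 was the most abundant, with 601 UMIs, and 171 of its 215 CD3-positive cells (79.5%) also had Tcrg-C2, against 8.61% of CD3-positive cells without Trgv2. Tcrg-C1 was seen in 54.0% of the Trgv2 cells and Tcrg-C4 in 69.8%, against 23.0 and 16.7% of CD3-positive cells without Trgv2. Tcrg-V1 was seen in 62 CD3-positive cells, of which 75.8% had Tcrg-C4, 67.7% Tcrg-C1 and 64.5% Tcrg-C2. In CD3-positive cells without Tcrg-V1 the shares were 27.1, 28.2 and 24.4% in that order. Tcrg-V4 gave 66.1% for Tcrg-C1, 57.6% for Tcrg-C2 and 66.1% for Tcrg-C4, against 28.5, 25.1 and 28.1% without Tcrg-V4. Each of these segments thus went with higher shares of all 3 constant genes. Reads from the 3′ end do not show which variable segment a constant region was joined to, so these are counts of cells with both transcripts. Trav11, the alpha segment of natural killer T cells, was seen in 45 CD3-positive cells, all with Trac only and without Ncr1. Of these, Tcrg-C1 was seen in 33.3%, Tcrg-C2 in 28.9% and Tcrg-C4 in 28.9%, beside 32.2, 28.6 and 30.1% in Ncr1-negative cells with Trac only.

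Cells with the coreceptor Cd4, which marks helper T cells, and without Cd8a or Cd8b1 numbered 194 among the CD3-positive cells, of which 95.9% had Trac and 2.58% Trdc. The 63 cells with Cd8a or Cd8b1, the coreceptor of cytotoxic T cells, and without Cd4 had Trac in 84.1% and Trdc in 7.94%. The 546 cells with neither coreceptor had Trac in 82.4% and Trdc in 4.58%.

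Cells with Trdc only were compared with cells with Trac only on counts summed per library, in the 3 libraries with at least 5 cells of the first kind (6, 6 and 7 cells in PV replicate 1, CV replicate 1 and CV replicate 2). Trac and Trdc defined the states and were left out. Of 5429 genes tested, 43 were called at an adjusted p under 0.05 (0.792%), 31 higher (0.571%) and 12 lower (0.221%). Of the 9 receptor genes, 5 passed the filter on low counts and 2 were called, both higher. Tcrg-C4 was at 690 CPM in Trdc-only cells of PV replicate 1 and at 435 and 394 CPM in those of CV. In Trac-only cells of the same libraries it was at 72.1, 108 and 69.4 CPM. Every Trdc-only sum lay above every Trac-only sum, and the log2 fold change was 2.33 ± 0.33 (SE; edgeR's quasi-likelihood test, Benjamini-Hochberg adjusted p = 5.4e-10).

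Tcrg-C2 averaged 365 ± 60.5 CPM in Trdc-only cells and 106 ± 31.2 CPM in Trac-only cells (SD, n = 3 each). Its log2 fold change was 1.47 ± 0.35 (edgeR adjusted p = 0.00406), and the adjusted p was 0.143 without the filter on low counts, 0.118 without CV replicate 1 and 0.337 without CV replicate 2. Tcrg-C1 averaged 268 ± 33.7 and 97.0 ± 21.8 CPM in Trdc-only and Trac-only cells and did not pass the test, although it was higher in 3 of 3 libraries (1.17 ± 0.38, edgeR adjusted p = 0.17). The beta genes did not pass either. Trbc1 was at 793 ± 135 CPM in Trdc-only cells and 949 ± 31.2 CPM in Trac-only cells (log2 -0.58 ± 0.32), and Trbc2 at 1382 ± 468 and 1572 ± 30.6 CPM (log2 -0.54 ± 0.33). Of the 13 Ncr1-negative Trdc-only cells, 13 held Trbc2 and 9 held Trbc1.

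Genes of natural killer cells were among the other calls. Of the Trdc-only cells tested, 2 of 6 in PV replicate 1, 3 of 6 in CV replicate 1 and 3 of 7 in CV replicate 2 were Ncr1-positive. The part of these cells in the result was not tested, since no library kept 5 Trdc-only cells without them. Of 13 tested genes of the natural killer list, 9 were higher and 0 lower, with a median log2 fold change of 2.32 beside -0.29 over all genes tested. Fcer1g, a signalling adaptor of natural killer cells, was at 190, 3336 and 2165 CPM in Trdc-only cells and at 22.2, 55.0 and 113 CPM in Trac-only cells (log2 4.29 ± 0.37). Gzma, a granzyme, was at 214, 3713 and 131 CPM in Trdc-only cells and 30.9, 1.04 and 24.6 CPM in Trac-only cells, so that CV replicate 1 held most of it. Of 7 cytotoxicity genes 3 were higher, among them Gzmb. DESeq2 called 21 genes, 21 higher and 0 lower, so every lower call rests on edgeR alone, which gave 12. These 12 included Ifng, the gene of interferon gamma (log2 -2.28 ± 0.46), the costimulatory receptor Icos (log2 -2.52 ± 0.69) and the transcription factor Maf (log2 -2.13 ± 0.48). The 20 tested genes of T cell receptor signalling included 0 called in edgeR, with a median of -0.43.

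Of the list of the interleukin-17 program of gamma-delta cells, 8 of 23 genes in the files were abundant enough to be tested between Trdc-only and Trac-only cells. Of these 0 were higher and 1, Maf, was lower in edgeR, with a median log2 fold change of -0.51 beside -0.29 over all genes tested. Il7r was detected in 10 of the 23 Trdc-only cells, Tmem176b in 9, Tmem176a in 7, Maf in 7 and Rora in 6. Cd163l1 had 11 UMIs in 4 CD3-positive cells, and 1 of these held Trdc without Trac, 2 held 14 and 19 Trac UMIs without Trdc, and 1 held a UMI of each. Il17a, Il17f and Sox13, a transcription factor of that lineage, had 0 UMIs in the 23 Trdc-only cells, as did the receptors Il23r and Ccr6, which allows a share of up to 13.0% of cells with a UMI for each. Of the 13 Ncr1-negative Trdc-only cells, 12 had Cxcr6, a chemokine receptor of liver-resident lymphocytes, 12 had the chemokine Ccl5, 13 had the interleukin-2 receptor gene Il2rb and 8 had Il7r. CD3-positive cells as a whole held Cxcr6 at 667 ± 67.7 CPM and Ccl5 at 3332 ± 885 CPM (SD, n = 4 libraries). These counts of cells were not compared with Trac-only cells.

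In CD3-negative Ncr1-positive cells, 5 receptor genes were lower than in CD3-positive cells and none of the 7 tested was higher in edgeR. DESeq2 called 4 of the 7 lower and 0 higher. Trdv4 and Cd163l1 had too few UMIs to be tested. Trdv4 averaged 43.8 ± 65.6 CPM in CD3-negative Ncr1-positive cells and 6.71 ± 4.87 CPM in CD3-positive cells (SD, n = 4 libraries). It was higher in 2 of 4 libraries, both of them CV. The gate used Cd3d, Cd3e, Cd3g and Ncr1, which were left out of the test. Of 6016 genes tested, 352 were called (5.85%), 111 higher (1.85%) and 241 lower (4.01%). Trac was at 0, 27.4, 18.3 and 32.0 CPM in CD3-negative Ncr1-positive cells and at 785, 740, 804 and 658 CPM in CD3-positive cells of the PV and CV libraries, with no overlap (log2 -5.19 ± 0.39, edgeR adjusted p = 3.7e-36). Trbc1 averaged 378 ± 164 CPM and 911 ± 28.3 CPM in these classes (log2 -1.49 ± 0.23, edgeR adjusted p = 4.4e-09, n = 4 libraries). Trbc2 averaged 514 ± 277 and 1528 ± 99.3 CPM (log2 -1.80 ± 0.20, edgeR adjusted p = 2.0e-16). The beta genes thus differed less than Trac did on the log scale, a contrast between genes that was not itself tested.

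Tcrg-C2 had 0 UMIs in CD3-negative Ncr1-positive cells and 564 UMIs in CD3-positive cells (edgeR adjusted p = 1.35e-07), at least 7.34-fold lower with 3 counts over the group as the floor. Tcrg-C1 was at 24.2 ± 19.8 CPM in CD3-negative Ncr1-positive cells and 101 ± 20.5 CPM in CD3-positive cells (log2 -2.25 ± 0.58, edgeR adjusted p = 0.00283), and DESeq2 gave an adjusted p of 0.0961. Trdc, at 18.3 ± 25.8 and 43.1 ± 9.88 CPM, did not pass (log2 -1.85 ± 0.81, edgeR adjusted p = 0.236). Tcrg-C4 did not pass either (log2 0.63 ± 0.34, edgeR adjusted p = 0.43). In CD3-negative Ncr1-positive cells it was at 0 and 27.4 CPM in the PV libraries, against 329 and 267 CPM in the CV libraries, against 89.0 and 110 CPM in CD3-positive cells of PV and 117 and 82.7 CPM in those of CV. It was below the CD3-positive cells in both PV libraries and above them in both CV libraries.

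Whether this difference between the classes itself differed by zone was tested with a zone term, added after the data were seen. Of 6016 genes tested, 10 were called (0.166%), and of 7 receptor genes 1, Tcrg-C4. Its PV minus CV difference on the log2 scale was -4.32 ± 1.05 (SE, edgeR adjusted p = 0.0281), and it rests on 1 UMI in the PV cells. The call was lost with DESeq2 (adjusted p = 0.998), without the filter on low counts (adjusted p = 0.0646) and without any single library (adjusted p = 0.182 to 0.774). Trbc1 and Trbc2 had -1.15 ± 0.47 and -1.35 ± 0.41 and did not pass (edgeR adjusted p = 0.884 and 0.308). With shared barcodes kept, CD3-negative Ncr1-positive cells numbered 14 and 15 in the PV libraries, against 17 and 24 in the CV libraries, and PV could be tested against CV within the class. Of 738 genes 0 were called in edgeR (0%), with 52 at an unadjusted p under 0.05. Tcrg-C4 had a log2 fold change of -3.23 ± 0.79 (unadjusted p = 0.00384, edgeR adjusted p = 0.536), Trbc1 -0.71 ± 0.35 and Trbc2 -0.54 ± 0.31.

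Moving the 67 CD3-positive Ncr1-positive cells to the Ncr1 side, a division added after the data were seen, changed 2 of these values. Trdc was then higher on the Ncr1 side (log2 1.81, edgeR adjusted p = 0.000374), and Trbc1 no longer passed (log2 -0.62, adjusted p = 0.0706). Trac, Trbc2, Tcrg-C1 and Tcrg-C2 were still lower, at log2 -3.84, -1.36, -1.25 and -1.97.

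Part of the rest of the receptor machinery was lower as well in CD3-negative Ncr1-positive cells. Of 17 tested genes of T cell receptor signalling, 8 were lower and 0 higher in edgeR, with a median log2 fold change of -1.36 beside -0.17 over all genes tested. Among them were the adaptor Lat (57.5 ± 38.5 and 254 ± 9.61 CPM in CD3-negative Ncr1-positive and CD3-positive cells), Thy1 (126 ± 93.3 and 417 ± 34.8 CPM), Cd28, Cd5, Cd6, Skap1 and Themis. The coreceptor genes Cd4, Cd8a and Cd8b1 had 0 UMIs in CD3-negative Ncr1-positive cells and were lower, at least 4.01-fold, 2.47-fold and 3.53-fold. Of 16 natural killer genes 15 were higher and 0 lower, with a median of 2.94, among them Eomes, a transcription factor of natural killer cells (213 ± 191 and 2.23 ± 1.73 CPM). Of 7 cytotoxicity genes 4 were higher, including Gzma (6601 ± 3068 and 675 ± 410 CPM) and the perforin gene Prf1 (405 ± 237 and 43.1 ± 16.7 CPM). The classes were themselves drawn by Ncr1 and CD3 transcripts, so the directions of these lists are not independent of the gate. The lists were also chosen with earlier results of these data known.

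**Figure D5:**
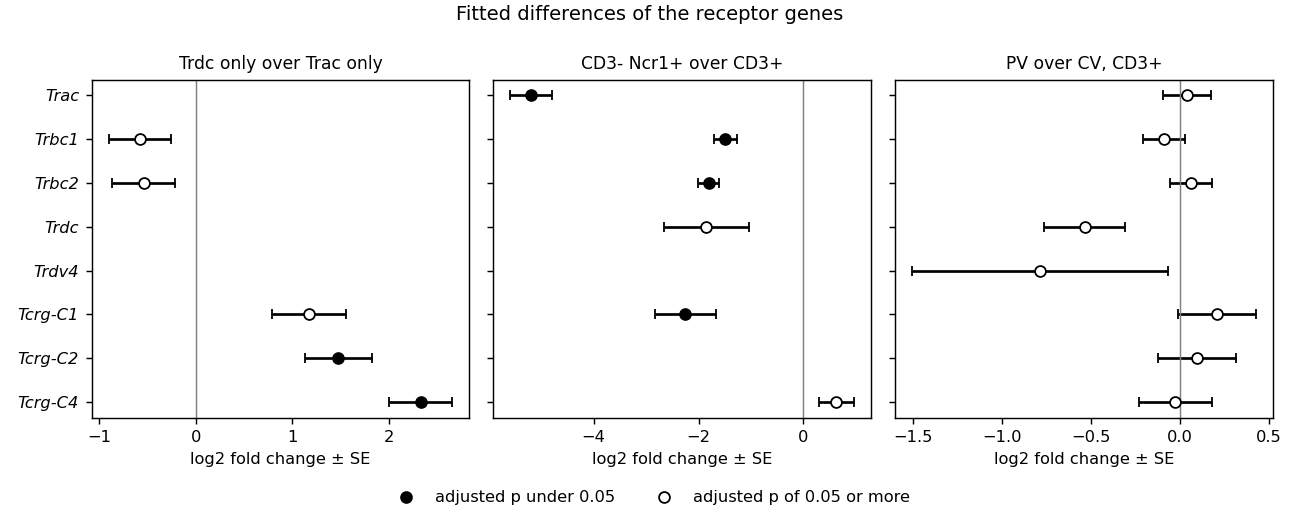
Log2 fold change with its standard error (horizontal axis) of each receptor gene tested in Trdc-only over Trac-only cells, CD3-negative Ncr1-positive over CD3-positive cells, and PV over CV within CD3-positive cells; filled points have an edgeR adjusted p under 0.05. Tcrg-C4 lies at 2.33 in the first comparison and Trac at -5.19 in the second, while every gene in the third is open. Tcrg-C2 was tested and called lower in the second comparison but is not drawn there, since it had 0 UMIs in CD3-negative Ncr1-positive cells.

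Between zones, the receptor genes of CD3-positive cells did not pass the test. Of 8238 genes tested in PV over CV, 2 were called (0.0243%), 1 higher (0.0121%) and 1 lower (0.0121%). Of the receptor genes 8 were tested and 0 called in edgeR, with 1 at an unadjusted p under 0.05, and 0 called in DESeq2, with 0 at an unadjusted p under 0.05. Trac was at 785 and 740 CPM in the PV libraries, against 804 and 658 CPM in the CV libraries (log2 0.04 ± 0.13). Trbc1 and Trbc2 had log2 fold changes of -0.09 ± 0.12 and 0.06 ± 0.12. Tcrg-C1, Tcrg-C2 and Tcrg-C4 had 0.21 ± 0.22, 0.10 ± 0.22 and -0.03 ± 0.20, and the zones overlapped for each of these 3 genes. Trdv4 had -0.78 ± 0.72 on few UMIs.

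Trdc was at 40.7 and 30.2 CPM in the PV libraries, against 52.5 and 48.8 CPM in the CV libraries, without overlap (log2 -0.53 ± 0.23, unadjusted p = 0.042, edgeR adjusted p = 1.0). The PV sums were 59 UMIs from 10 cells and 43 UMIs from 5 cells, and the CV sums 60 UMIs from 10 cells and 62 UMIs from 10 cells. Trdc-positive cells made up 4.69 and 2.34% of CD3-positive cells in the PV libraries, against 5.18 and 5.35% in the CV libraries. Markers of natural killer and type 1 innate lymphoid cells, Ncr1 among them, were also summed in CD3-positive cells. Their level was 494 and 746 CPM in the PV libraries, against 1118 and 1126 CPM in the CV libraries. That difference was not tested. Without the Ncr1-positive cells the log2 fold change of Trdc was -0.41, also short of the test (edgeR adjusted p = 1.0). The called genes were Xcl1, a chemokine of natural killer and T cells (536 and 506 CPM in the PV libraries, against 1047 and 1133 CPM in the CV libraries), and Lyz2, a lysozyme of macrophages and neutrophils (217 and 310 CPM in the PV libraries, against 9.62 and 4.73 CPM in the CV libraries). Both calls were lost with Ncr1-positive cells left out, with at least 2 CD3 UMIs required, with mixed cells kept and with shared barcodes kept, and Lyz2 changed sign with mixed cells kept.

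The genes most like each receptor gene were ranked by Pearson's r of log2(CPM + 20) over 33 class and library sums of 10 classes, which share libraries and depth, among 10112 candidates. For Trac they were Cd3d (0.96), Cd3e (0.96), Tcrg-C2 (0.95), Themis (0.94) and Cd6 (0.94). For Trbc2 they were Skap1 (0.99), Cxcr6 (0.98), Bcl11b (0.98), Trbc1 (0.97) and Lck (0.97). For Tcrg-C1 they included Lat and Cxcr6 (0.97 each). For Trdc they were Tnfsf8 (0.93), Il2 (0.91) and 1810006J02Rik (0.90). Cd163l1 had too few UMIs to be ranked.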

How the data were processed

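Per the labels' protocols, cells were captured in droplets and libraries built with 10x Chromium 3′ v3.1 reagents. The deposited matrices hold unnormalized UMI counts, 1 column per barcode. The submitters' processing notes name Cell Ranger 4.0.0 and mm10. The annotation used for counting is not given in the sources used here. Symbols were found for 32158 of 32285 identifiers. Barcodes were kept with at least 200 genes and at most 10% mitochondrial UMIs. Scrublet in scanpy 1.11.5, at an assumed rate of 3%, marked 1 cell per library, which is too few for the caller to count as having worked, so doublets may remain. Median depth of the kept cells was 6217 and 6317.5 UMIs in PV and 5369 and 5623 in CV.

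Counts were summed per library and class and tested in R 4.3.3 by edgeR's quasi-likelihood method (edgeR 4.0.16) with TMM scaling, a filter on low counts and Benjamini-Hochberg adjustment over all genes tested. The comparisons within libraries had the library as a block. DESeq2 1.42.0 was an alternative. The tests were checked on simulated counts. The 9 genes and the gene lists were chosen with earlier results of these data known. Beyond the 9 genes, named genes were the called genes with the smallest p in each direction and the called members of the lists. The genes of single states were taken from the lists. A few genes that these rules name are not reported here. Sequences were read from the GENCODE vM21 transcripts, annotated on GRCm38. Whether the replicate numbers pair PV with CV is not known. Deviations of samples with the same number correlated at 0.11 over 5248 genes, in 2 pairs, and those of crossed numbers at -0.11. With 2 libraries per zone these values mirror each other, so they cannot decide it. A test between zones within CD3-negative Ncr1-positive cells needed at least 10 cells per library, which held only with shared barcodes kept.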

Additional observations from a re-analysis of the deposited data

Results flagged for a closer look

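The difference of CD3-negative Ncr1-positive minus CD3-positive cells ran in opposite directions in the zones for 2 of the 9 receptor genes. The share of all genes with such a pattern was not counted, so the number 2 is not a result about the receptor genes. For Tcrg-C4 it was -89.0 and -82.2 CPM in the PV libraries, against 212 and 184 CPM in the CV libraries, a PV minus CV difference of -283 CPM in the mean. For Trdv4 it was -2.07 and -7.72 CPM in the PV libraries, against 23.4 and 135 CPM in the CV libraries, a PV minus CV difference of -84.0 CPM. For Tcrg-C4 an edgeR zone term gave an adjusted p of 0.0281, and 0.998 in DESeq2. For Trdv4, which had too few UMIs for that fit, the difference between zones was not tested. The PV sums rest on 6 and 7 CD3-negative Ncr1-positive cells and the CV sums on 11 and 18.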

How the results depend on the processing

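Between zones in CD3-positive cells, the 2 calls became 8 with DESeq2, 37 without the filter on low counts, 20 to 129 with each replicate left out, and 0 in edgeR with Ncr1-positive cells left out, at least 2 CD3 UMIs, mixed cells kept or shared barcodes kept (232, 259, 256 and 290 genes at an unadjusted p under 0.05). With the replicate number as a block the count was 8. Trdc-only against Trac-only cells gave 21 calls with DESeq2 and 13 to 132 with each library left out, against 43. CD3-negative Ncr1-positive against CD3-positive cells gave 205 with DESeq2 and 535 with all Ncr1-positive cells on the Ncr1 side, against 352. The zone term gave 3 calls with DESeq2, 6 without the filter and 4 to 21 with each library left out, against 10. Changes of sign between zones, on values that passed no test, were Trac at -0.060 and Trbc2 at -0.013 without Ncr1-positive cells, and with each library left out the ranges were -0.088 to 0.17 for Trac, -0.037 to 0.15 for Trbc2, -2.003 to 0.27 for Trdv4, -0.052 to 0.51 for Tcrg-C1, -0.21 to 0.47 for Tcrg-C2 and -0.25 to 0.22 for Tcrg-C4. Lyz2 turned to -0.29 with mixed cells kept. Between CD3-negative Ncr1-positive and CD3-positive cells, Trdc turned to 1.81 with all Ncr1-positive cells on the Ncr1 side and Tcrg-C4 ranged over -0.016 to 0.95 with each library left out. Shares, PV minus CV in points: Trdc only 0.799 when thinned; Trac only -1.34 without Ncr1-positive cells; CD3-positive among kept cells -9.01 to 13.2, against 2.07; Trdc in CD3-negative Ncr1-positive cells -8.33 when thinned and -4.55 to 24.03 with each library left out, against 9.74. The cause of these changes was not tested. Counts of 0 to 3 UMIs in small classes limit Trdc, Trdv4 and Cd163l1.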

Other observations

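Ncr1-positive cells with neither Trac nor Trdc fell on both sides of the CD3 gate, 35 without a CD3 transcript and 47 with one. The genes named here were chosen after their values were seen, and no test was run, since cells are not replicates. Fcer1g was seen in 35 of 35 cells without CD3 and 47 of 47 with it. Itga1, an integrin chain of type 1 innate lymphoid cells, was seen in 34.3% of the cells without CD3 and 76.6% of those with it. Cxcr6 was seen in 40.0% of the cells without CD3 and 72.3% of those with it, at similar summed levels of 314 and 329 CPM. Eomes, a transcription factor of natural killer cells, was seen in 25.7% of the cells without CD3 and 4.26% of those with it, and Klf2 in 42.9 and 12.8%. Of the receptor genes, Trbc1 was seen in 74.3 and 91.5%, Trbc2 in 65.7 and 68.1%, Tcrg-C4 in 45.7 and 23.4%, and Trdv4 in 7 of 35 and 12 of 47 cells without and with CD3. By library the cells without CD3 numbered 6 and 5 in the PV libraries, against 9 and 15 in the CV libraries, and those with CD3 numbered 1 and 10 in the PV libraries, against 19 and 17 in the CV libraries.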
